A study of Saccharomyces cerevisiae with 12 samples.

Results

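The early response of RNA polymerase I (Pol I) to BMH-21 was examined in native elongating transcript sequencing (NET-seq) libraries of Saccharomyces cerevisiae, 3 from BMH-21-treated and 3 from vehicle-treated cultures of the 2-min experiment. These are 6 of the 12 libraries of the series, chosen by their treatment and treatment time, and all 6858 positions of the 35S gene were described. Both groups came from a wild-type strain with an HA-tagged second-largest Pol I subunit (RPA135) and its largest subunit (RPA190) carried on a plasmid. BMH-21 at 50 μM, or phosphate buffer alone as vehicle, was added at an OD600 of 0.3, and cells were filtered about 2 min later. The replicates are described as biological triplicates.

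The 35S gene lies on the minus strand of chromosome XII, from 460712 to 467569 in the R64 assembly, and its sequence there is identical to the bases in the deposited table. The yeast rDNA is a tandem array of near-identical repeats, so a position stands for that nucleotide in all copies. Pol I transcribes the 18S, 5.8S and 25S rRNAs as one precursor. External spacers (ETS1 before 18S, ETS2 after 25S) and internal spacers (ITS1 and ITS2, on either side of 5.8S) are cut from it during maturation. BMH-21 is a planar small molecule that intercalates into GC-rich DNA and inhibits Pol I. In NET-seq the tagged polymerase is pulled down with its RNA, and the end of each read marks the last nucleotide of that RNA. In the spacers read ends are taken as Pol I occupancy. In the 18S, 5.8S and 25S regions they can also come from finished rRNA bound to the beads, and these sources cannot be told apart in the tables.

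Values are RPM, read ends scaled by the authors to each library's total on the 35S gene (the values of a library summed to 1000070 to 1000270), so they are shares and not amounts per cell. The depth was 1172045 to 3440024 reads in the BMH-21-treated libraries and 2386252 to 5339620 reads in the vehicle-treated libraries. The spacers held 25318 to 104922 and 118095 to 308528 of these reads. At some positions no library had a read end, among them the first position past 18S, 5.8S and 25S.

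The BMH-21-treated libraries differed among themselves by more than the vehicle-treated ones, and mainly in the spacers. ETS1 held 1.59%, 0.561% and 0.904% of the read ends in BMH-21-treated replicates 1, 2 and 3, against 2.62%, 3.18% and 3.21% in vehicle-treated replicates 1, 2 and 3. The groups did not overlap, and BMH-21-treated replicate 1 lay nearest to the vehicle libraries. The highest ETS1 share was 2.84 times the lowest among BMH-21-treated libraries, against 1.22 times among vehicle-treated libraries. Replicate 1 was the highest of the 3 BMH-21-treated libraries at 86.1% of the 1397 spacer positions tested, and replicate 2 the lowest at 75.7%. In the mature regions the order was different, since replicate 1 was the lowest at 53.4% of 5349 positions and replicate 2 the highest at 47.3%. The 25S share was nearly the same in all 3, at 67.4%, 67.5% and 67.2%.

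Over the tested spacer positions, the SD of log2(RPM + 1) had a median of 0.67 among the BMH-21-treated libraries and 0.21 among the vehicle-treated libraries. With each library scaled to its spacer sum these medians were 0.37 and 0.18, so that part of the spread was a difference in level shared by the spacer positions. The BMH-21-treated libraries also held fewer spacer reads, 25318 to 104922 against 118095 to 308528. How far depth set these SDs was not tested. By region, the median SD in BMH-21-treated libraries was highest in ETS1 (0.75), followed by ITS1 (0.66), ETS2 (0.56) and ITS2 (0.54). In vehicle-treated libraries it lay between 0.20 and 0.24 in the same regions. In 18S and 25S it was 0.22 in each with BMH-21, against 0.13 in each with vehicle. Without BMH-21-treated replicate 1 the spacer median was 0.40, still above the 0.21 of the vehicle libraries.

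**Figure D1:**
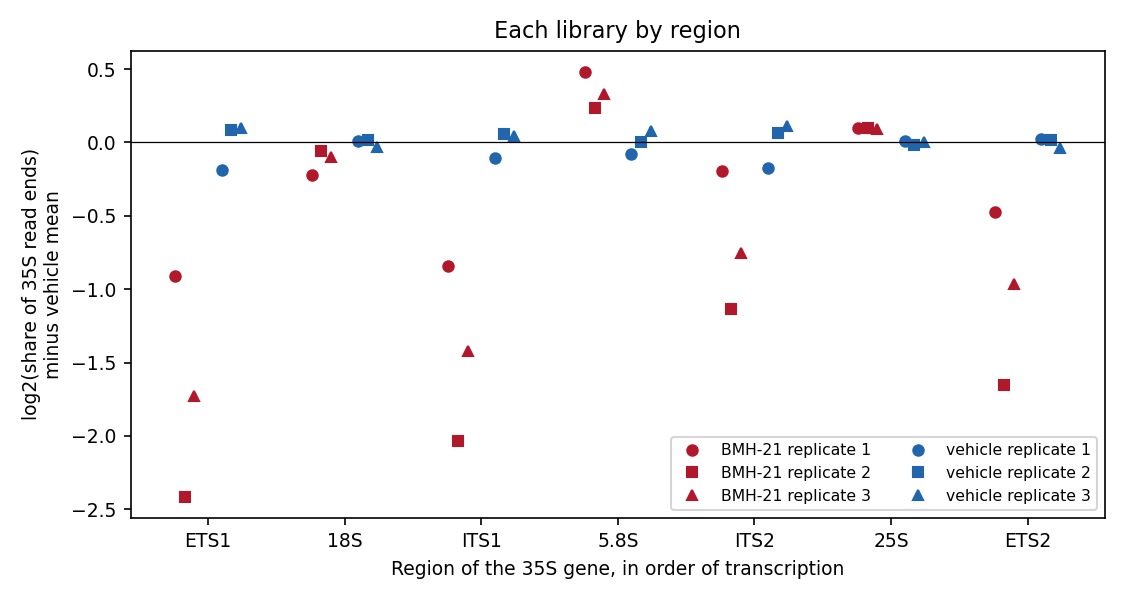
Each of the 7 regions of the 35S gene is on the x axis, and the y axis gives the log2 share of 35S read ends of each library minus the mean of the vehicle-treated libraries. Points are single libraries, BMH-21 in red and vehicle in blue; the BMH-21 libraries are spread by 1.51 in ETS1 and by 0.01 in 25S.

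The gene was then divided into 69 windows of 100 nt, laid from the start of each region. Of these, 19 fell (27.5%) and 13 rose (18.8%) after BMH-21 treatment in limma with Benjamini-Hochberg adjustment at an adjusted p under 0.05. All 7 windows of ETS1, all 4 of ITS1, both of ETS2 and the later one of ITS2 fell, along with 4 of 18 in 18S and 1 of 34 in 25S. Both windows of 5.8S rose, with 1 of 18S and 10 of 25S. Libraries were scaled to the whole 35S gene, and the median log2 change over all windows was -0.13. With scaling by the median ratio 16 windows fell and 18 rose.

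The most lowered window was 501 to 600, in ETS1. It held 1562, 518 and 895 RPM in BMH-21-treated libraries, against 3281, 3781 and 3855 RPM in vehicle-treated libraries, so that each BMH-21-treated library was below each vehicle-treated one. Its log2 change was -2.01 ± 0.40 (SE; limma with Benjamini-Hochberg adjustment, adjusted p = 0.0187). The next were 2801 to 2861, the end of ITS1 before 5.8S, at -1.90 ± 0.37, and 601 to 700, the end of ETS1 before 18S, at -1.85 ± 0.31, with the same adjusted p in that test.

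The decrease was of like size along ETS1, with window changes between -2.01 and -1.52. The first window, next to the promoter, changed by -1.82 ± 0.46 (SE). The first 350 nt of ETS1 held 9225, 3104 and 5057 RPM with BMH-21 and 14123, 17295 and 17480 RPM with vehicle. Its last 350 nt held 6720, 2507 and 3987 RPM with BMH-21 and 12082, 14479 and 14604 RPM with vehicle. The log2 ratio of the last to the first was -0.46, -0.31 and -0.34 in BMH-21-treated libraries and -0.23, -0.26 and -0.26 in vehicle-treated libraries. All ratios were below 0, and the groups did not overlap. The difference of -0.12 had p = 0.1 (exact permutation test, two-sided), the smallest p that 3 libraries against 3 allow. Taken between the first and last 200 nt, the difference was -0.28 with the same p, and without BMH-21-treated replicate 1 it was -0.08 over the whole spacer.

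The exception among spacer windows was the start of ITS2, from 3020 to 3119, just past 5.8S. It held 7010, 3727 and 4766 RPM with BMH-21 and 5524, 6699 and 7020 RPM with vehicle, and the groups overlapped. Its log2 change was -0.35 ± 0.25 (SE; limma with Benjamini-Hochberg adjustment, adjusted p = 0.255). The rest of ITS2, from 3120 to 3251, changed by -1.33 ± 0.25.

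The 3 most raised windows lay in the mature regions. The last 58 nt of 5.8S, from 2962 to 3019, held 25964, 19824 and 21651 RPM with BMH-21 and 14564, 15953 and 17232 RPM with vehicle. The groups did not overlap, and the log2 change was 0.49 ± 0.12 (SE). The windows 5252 to 5351 and 4952 to 5051 of 25S followed at 0.40 ± 0.08 and 0.36 ± 0.07 (SE; limma with Benjamini-Hochberg adjustment, adjusted p = 0.0223 for 5.8S and 0.0187 for both of 25S). In 25S, 12 of the 17 windows nearer its 3′ end had a change above 0, with a median of 0.18, against 8 of the 17 nearer its 5′ end, with a median of -0.05. In 18S these were 3 of 9 with a median of -0.22 and 0 of 9 with a median of -0.15.

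These window calls rested on few libraries. Limma with Benjamini-Hochberg adjustment called 0 windows in either direction without BMH-21-treated replicate 3 and without vehicle-treated replicate 1, 2 or 3. At an unadjusted p under 0.05, 17 to 19 were then still lower and 11 to 13 higher. On the recovered reads of all 6 libraries, edgeR called 19 lower and 15 higher.

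**Figure D2:**
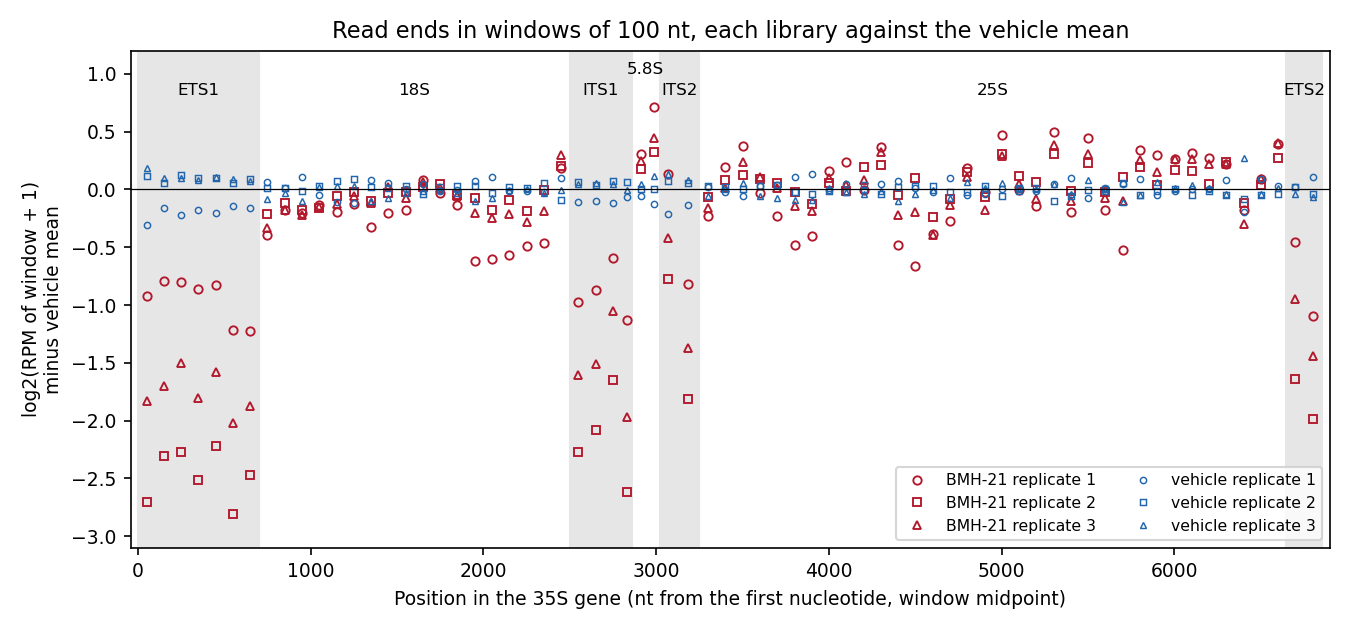
The x axis is the midpoint of each window of 100 nt in the 35S gene (nt), and the y axis log2(RPM + 1) of the window minus the mean of the vehicle-treated libraries. Points are single libraries, BMH-21 in red and vehicle in blue, and spacers are shaded; in the window from 501 to 600 all BMH-21 libraries lie below all vehicle libraries, while from 2962 to 3019 they lie above.

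Borders between spacers and mature rRNAs were compared next, as sums over 30 nt on each side. At the 3′ end of each mature rRNA, read ends inside the rRNA were more frequent in every BMH-21-treated library. The last 30 nt of 25S held 19884, 17241 and 19711 RPM with BMH-21 and 12449, 12520 and 13098 RPM with vehicle, a log2 difference of 0.58. It was 0.55 for the last 30 nt of 5.8S and 0.43 for those of 18S.

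At the 5′ end of each mature rRNA the order was the opposite. The first 30 nt of 18S held 1323, 1772 and 1684 RPM with BMH-21 and 2726, 2602 and 2406 RPM with vehicle, a log2 difference of -0.70. The difference was -0.49 for 5.8S and -0.57 for 25S. At all 6 borders every library of one treatment lay on the same side of every library of the other (p = 0.1 for each, two-sided exact permutation test). The direction of these 6 differences was the same when libraries were scaled by the median ratio or to the mature regions. Non-overlap was common in the mature regions, at 10 of 18 windows of 18S, 2 of 2 of 5.8S and 18 of 34 of 25S.

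On the spacer side, the 30 nt before each mature rRNA differed by -1.98 before 18S, -1.87 before 5.8S and -1.92 before 25S. Past the mature 3′ ends the difference was -1.44 in ITS1. In ETS2 it was -0.89, with 3120, 1339 and 2178 RPM with BMH-21 against 4030, 3887 and 3697 RPM with vehicle. In ITS2 it was -0.05, with 5957, 3219 and 4033 RPM against 3682, 4586 and 5036 RPM, and the groups overlapped. With scaling by the median ratio this last difference was 0.19. More than 30 nt from a mature end, the log2 difference was largest in ETS1, at -1.68, with -1.48 for ETS2, -1.41 for ITS1 and -1.30 for ITS2.

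The first 30 nt held 61.4%, 63.4% and 61.1% of the ITS2 read ends with BMH-21 and 37.4%, 39.4% and 41.8% with vehicle. Positions within 30 nt of a mature end are 180 of the 1504 spacer positions. They held 29.0%, 34.0% and 31.3% of the spacer read ends with BMH-21 and 19.2%, 18.2% and 18.4% with vehicle. Neither share overlapped between treatments (exact permutation test, two-sided, p = 0.1 for both).

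The signal past the 5.8S and 25S ends was concentrated in a few nucleotides, which are shown here with the last 10 bases of the mature rRNA in capitals and the first 40 of the spacer in lower case (R64 assembly, minus strand, 5′ to 3′).
ITS2 border, chrXII:464511-464560: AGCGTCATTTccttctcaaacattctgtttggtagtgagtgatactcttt
ETS2 border, chrXII:460883-460932: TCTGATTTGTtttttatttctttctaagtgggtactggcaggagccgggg
In ITS2, positions 3021 to 3025 (the bases cttct of the run after 5.8S) each averaged 586 to 955 RPM with BMH-21, whereas from 3032 to 3039 no position averaged over 8.26 RPM with BMH-21 or 19.9 RPM with vehicle. Position 3021 had 789, 461 and 560 RPM with BMH-21 and 363, 467 and 542 RPM with vehicle, which overlapped. Its local contrast, explained further on, was higher with BMH-21 by 1.72 on the log2 scale (limma with Benjamini-Hochberg adjustment, adjusted p = 0.00437). That contrast is taken against positions within 50 nt in ITS2, which here lie mostly downstream. The adjacent positions 3022 and 3023 changed in level by 0.40 and 0.36, beside 0.38 at 3021. Thus 3021 did not rise against them, and none of these 3 level changes passed the threshold.

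Past 25S, neighbouring nucleotides of ETS2 went opposite ways. Each of the 10 positions from 6650 to 6659 (the bases tttatttctt) had a higher mean with BMH-21, and 3 of them (6653, 6654 and 6655) passed the test. Position 6655 had 85.1, 51.2 and 69.1 RPM with BMH-21 and 36.9, 36.9 and 33.6 RPM with vehicle, without overlap. It rose by 0.89 ± 0.20 (SE; limma with Benjamini-Hochberg adjustment, adjusted p = 0.0212). This call was lost in 5 of 14 alternatives, with the replicate block and without BMH-21-treated replicate 3 or vehicle-treated replicate 1, 2 or 3. A few nucleotides on, the highest vehicle position of ETS2, 6662, went the other way. It had 839, 224 and 404 RPM with BMH-21 and 1963, 1788 and 1712 RPM with vehicle, and fell by 2.10 ± 0.43 on the log2 scale (adjusted p = 0.0176 in the same test). The call at 6662 was lost in 4 of 14 alternatives, without BMH-21-treated replicate 3 or vehicle-treated replicate 1, 2 or 3. Position 6662 is the last nucleotide before the stretch that the deposited table marks as cleaved by Rnt1, the RNase III that cuts the 3′ spacer.

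**Figure D3:**
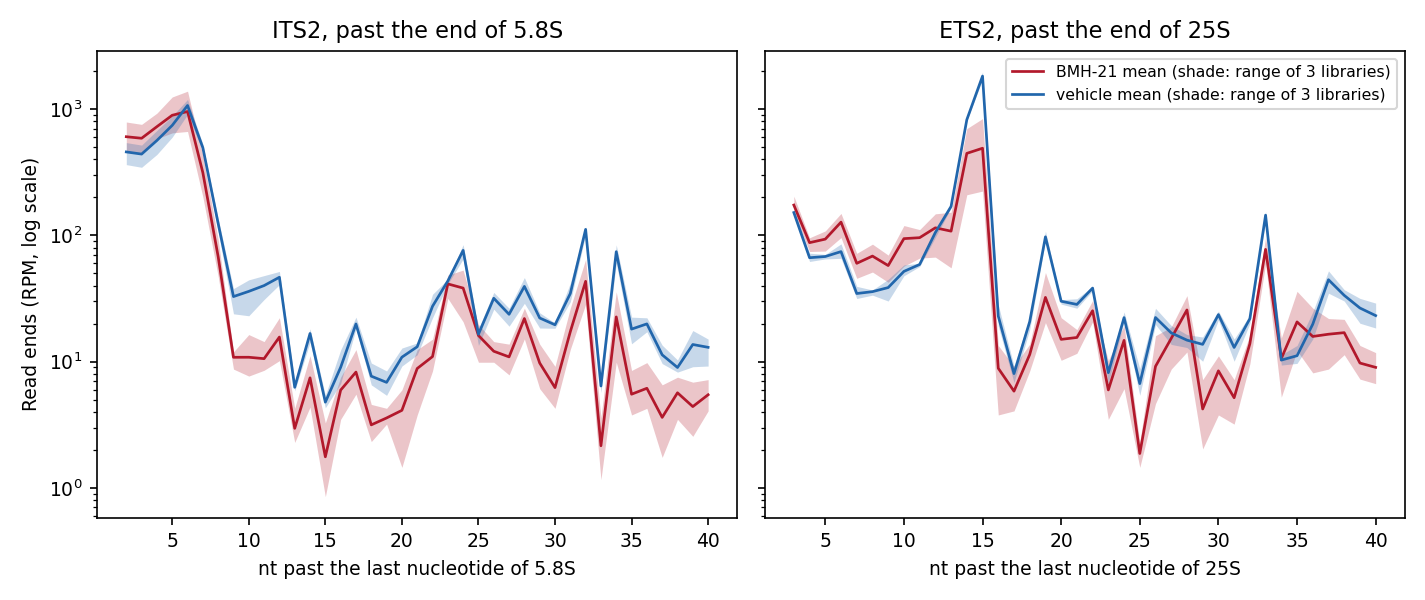
The x axes give nt past the last nucleotide of 5.8S (left, ITS2) and 25S (right, ETS2), and the y axis read ends in RPM on a log scale. Lines are means of the 3 BMH-21 libraries (red) and of the 3 vehicle libraries (blue), and shading is the range of each; the treatments overlap at the start of ITS2, whereas 15 nt past 25S the vehicle mean of 1821 RPM stands above the BMH-21 mean of 489 RPM.

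Farther into ETS2, the table marks T1, the position of the Reb1/Nsi1-proximal terminator at which Pol I ends most transcripts, at 6739. Read ends at this position were 75.9, 29.7 and 22.2 RPM with BMH-21 and 300, 273 and 310 RPM with vehicle. Every BMH-21-treated library was far below every vehicle-treated one. The fall was 2.96 ± 0.41 on the log2 scale (SE; limma with Benjamini-Hochberg adjustment, adjusted p = 0.00961). The local contrast explained further on also fell, by 1.99 ± 0.36 (adjusted p = 0.0220 in that test). This call was lost in 5 of 12 alternatives, with a pseudocount of 0.1, with the replicate block and without vehicle-treated replicate 1, 2 or 3, for which the contrast lay between -2.11 and -1.64 and the adjusted p between 0.0607 and 0.0869. The segment from 6698 to T1 held 299, 135 and 197 RPM with BMH-21 and 723, 785 and 800 RPM with vehicle, a log2 difference of -1.95.

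Beyond T1, the 119 nt to the end of the table held 110, 66.9 and 90.4 RPM with BMH-21 and 271, 236 and 230 RPM with vehicle, a difference of -1.49. The 35 nt marked for Rnt1 differed by -0.94 and the 15 nt before them by -0.88. For each of these segments the treatments did not overlap (exact permutation test, two-sided, p = 0.1). The 11 nt of the Reb1/Nsi1 site itself rested on as few as 10 reads in a library, and held 12.4, 9.01 and 8.53 RPM with BMH-21 and 25.2, 26.4 and 20.5 RPM with vehicle.

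At single nucleotides, 6746 positions with a mean of at least 1 RPM were tested on log2(RPM + 1), where the added constant shrinks the change of a low position. Over the whole gene, limma with Benjamini-Hochberg adjustment called 1580 positions lower (23.4%) and 240 higher (3.56%). In the spacers 976 (69.9%) were lower and 6 (0.429%) higher, and in the mature regions 604 (11.3%) were lower and 234 (4.37%) higher. The median log2 change over all positions was -0.26, and relative to it the regions differed in order. ETS1 had the lowest median, -1.49, with ITS1 at -1.46, ITS2 at -1.30 and ETS2 at -1.03, against -0.24 in 18S, -0.14 in 25S and 0.11 in 5.8S. By region, 477 of 680 positions fell in ETS1, 259 of 359 in ITS1, 173 of 231 in ITS2 and 67 of 127 in ETS2. In 18S 304 fell and 16 rose, in 25S 289 fell and 200 rose, and in 5.8S 11 fell and 18 rose. With scaling by the median ratio, 559 spacer positions were lower and 7 higher, and 205 positions of the mature regions were lower and 506 higher. On recovered reads, edgeR called 857 lower and 7 higher in the spacers, and 621 lower and 345 higher in the mature regions. Without vehicle-treated replicate 2 or 3, each fit called 1 position of the gene, which was lower, although before adjustment at least 1045 spacer positions passed as lower and 7 as higher. Without vehicle-treated replicate 1 or BMH-21-treated replicate 3, 387 and 453 spacer positions were lower and 0 higher (8 and 6 before adjustment).

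With the pseudocount of 1, the position with the largest fall in the spacers was 679, 22 nt before 18S. It had 3.93, 0.581 and 1.71 RPM with BMH-21 and 38.1, 34.7 and 35.3 RPM with vehicle. These values rest on 12, 2 and 2 reads and on 91, 185 and 124 reads. The fall was 3.74 ± 0.38 on the log2 scale (SE; limma with Benjamini-Hochberg adjustment, adjusted p = 0.00668). Without vehicle-treated replicate 2 or 3 the adjusted p of that test was 0.0509 or 0.0511. Positions 667, 34 nt before 18S, and 2821, 41 nt before 5.8S, followed at -3.12 and -2.99, with at most 12 and 11 reads in any BMH-21-treated library. At so few reads the order depended on the pseudocount, and with 0.1 the log2 changes were -4.65 at 667, -4.43 at 2821 and -4.40 at 679.

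Within the mature rRNAs the largest falls were at the 5′ end of 18S. Position 711, the eleventh nucleotide of 18S, had 48.8, 18.3 and 32.4 RPM with BMH-21 and 172, 142 and 147 RPM with vehicle, without overlap. It fell by 2.28 ± 0.33 (SE) in limma with Benjamini-Hochberg adjustment (adjusted p = 0.00964). Position 702, the second nucleotide, had 81.5, 29.4 and 62.3 RPM with BMH-21 and 255, 268 and 252 RPM with vehicle, and its adjusted p in that test was 0.0104. The third was 1465, inside 18S, at -1.86 ± 0.19.

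The largest rise of the gene was also in 18S, at position 1875. It had 318, 127 and 175 RPM with BMH-21 and 41.9, 47.95 and 41.8 RPM with vehicle, so that the 3 vehicle values lay close together and below all of the others. It rose by 2.10 ± 0.32 (SE; limma with Benjamini-Hochberg adjustment, adjusted p = 0.0103). Positions 3439 and 3468 of 25S rose by 0.99 and 0.95. In ITS1, positions 2613 and 2607 rose by 1.51 ± 0.46 and 0.97 ± 0.24, on 12 to 56 and 7 to 30 reads with BMH-21 against 3 to 27 and 8 to 20 reads with vehicle. The call at 2613 was close to the threshold (adjusted p = 0.0489, and between 0.0244 and 0.13 over its alternatives).

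Because most of the spacer signal moved together, each position was also compared with its surroundings. This local contrast was log2 of (RPM + 1) over the median RPM within 50 nt in the same region plus 1, in which a shift shared by neighbours cancels. Over the gene, limma with Benjamini-Hochberg adjustment called 305 positions lower (4.52%) and 389 higher (5.77%). In the spacers 113 (8.09%) were lower and 130 (9.31%) higher, and in the mature regions 192 (3.59%) were lower and 259 (4.84%) higher. The added constant pulls the contrast of a library towards 0 where its own level is low, which in the spacers acts more on BMH-21-treated libraries. Among the 6075 positions of the gene with a mean of at least 10 RPM, 133 spacer positions were lower and 77 higher. Without vehicle-treated replicate 2, 3 spacer positions were lower and 29 higher, and without vehicle-treated replicate 3 the counts were the same, with at least 216 lower and 219 higher before adjustment. They were 5 and 36 without vehicle-treated replicate 1, and 56 and 75 without BMH-21-treated replicate 3.

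The spacer positions whose contrast rose were unevenly placed. Within 30 nt of a mature end, 27 of 168 tested positions rose and 9 fell. Farther away 103 of 1229 rose and 104 fell. The rises near the ends included every position from 3021 to 3026, at the start of ITS2, and from 6650 to 6659, at the start of ETS2. Adjacent positions of such a run are compared with largely the same surroundings and are not separate sites. These counts therefore do not show a rise of contrast near mature ends in general.

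The 3 largest rises of contrast in the spacers were at 2613, 2607 and 490. Position 490, in ETS1, stood at 4.27, 5.44 and 5.33 times its surroundings with BMH-21 and at 1.18, 1.18 and 1.04 times with vehicle. Its RPM values, 60.5, 25.002 and 45.2 with BMH-21 and 26.0, 31.7 and 29.6 with vehicle, overlapped. The contrast rose by 2.14 ± 0.14 (SE; limma with Benjamini-Hochberg adjustment, adjusted p = 0.00246). It passed the threshold in all 12 alternatives run. At 2613 the contrast rose by 2.90 ± 0.33 (SE), and both 2613 and 2607 passed the threshold in all 11 alternatives that kept them.

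The largest falls of contrast in the spacers were at T1, at 679 and at 226. Position 679 stood at 0.909, 0.645 and 0.864 times its surroundings with BMH-21 and at 2.98, 2.53 and 2.66 times with vehicle, so that a site above its neighbours in vehicle-treated cells was level with or below them after BMH-21. Its contrast fell by 1.77 ± 0.16 and that of 226 by 1.61 ± 0.33 (SE; limma with Benjamini-Hochberg adjustment, adjusted p = 0.00368 for 679 and 0.0290 for 226). The call at 679 passed in all 12 alternatives, and that at 226 was lost in 5 of 12. In the mature regions the contrast rose most at 1875, by 2.18, and at 6448 and 4591 of 25S, by 1.16 and 1.14. It fell most at the 18S positions 702, 711 and 1465, by 1.80, 1.75 and 1.68. Of 12 alternatives, the rises were lost in 3 at 1875, 4 at 6448 and 7 at 4591. The falls were lost in 6 at 702, 7 at 711 and 1 at 1465.

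The highest position of each region was the same with both treatments in ETS1 (232), 18S (2498), 5.8S (3015), ITS2 (3025) and 25S (5046). At 2498, 3015 and 5046, levels rose by 0.66, 0.57 and 0.59 on the log2 scale (limma with Benjamini-Hochberg adjustment, adjusted p = 0.0184 at 2498, 0.0426 at 3015 and 0.0324 at 5046). The calls at 2498 and 5046 were lost in 5 of 14 alternatives, with the replicate block and without BMH-21-treated replicate 3 or vehicle-treated replicate 1, 2 or 3. The call at 3015 was lost in these and also with a pseudocount of 0.1 and with scaling to the mature regions (adjusted p = 0.0505 and 0.0562 in that test). At 232 the level fell by 1.71 (adjusted p = 0.0180 in that test), and this call was lost in the same 5 of 14 alternatives as at 2498. The highest positions of ETS2 were the neighbours 6661 with BMH-21 and 6662 with vehicle. In ITS1 the highest was 2710 with BMH-21 and 2571 with vehicle. Position 2710 had 156, 110 and 144 RPM with BMH-21 and 144, 148 and 128 RPM with vehicle, which overlapped, in a spacer where the median position fell. It stood at 15.9, 23.3 and 20.8 times its surroundings with BMH-21 and at 8.79, 8.41 and 7.03 times with vehicle, a rise of contrast of 1.298 ± 0.172 (SE; limma with Benjamini-Hochberg adjustment, adjusted p = 0.0106). Position 2571 had 122.7, 52.0 and 78.5 RPM with BMH-21 and 266, 323 and 346 RPM with vehicle, without overlap, and its contrast fell by 0.71 ± 0.13 (adjusted p = 0.0234).

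Examples of positions whose contrast rose or fell within ETS1, ITS1 and ETS2 are shown with 20 bases on either side and the nucleotide at the read end in capitals (R64 assembly, minus strand, 5′ to 3′, written with T for U). They were chosen after their values were seen. The contrast rose at the first 4 and fell at the last 4.
490, chrXII:467060-467100: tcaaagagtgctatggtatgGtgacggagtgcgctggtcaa
2613, chrXII:464937-464977: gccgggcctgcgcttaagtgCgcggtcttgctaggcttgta
2710, chrXII:464840-464880: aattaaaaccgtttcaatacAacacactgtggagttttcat
6655, chrXII:460895-460935: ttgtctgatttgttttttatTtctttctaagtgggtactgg
679, chrXII:466871-466911: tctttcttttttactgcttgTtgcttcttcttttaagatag
2571, chrXII:464979-465019: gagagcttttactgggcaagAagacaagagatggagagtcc
6662, chrXII:460888-460928: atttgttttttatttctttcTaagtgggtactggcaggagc
6739, chrXII:460811-460851: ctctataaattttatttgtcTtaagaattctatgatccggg
Over all tested spacer positions, contrast was called higher at 9.31% and lower at 8.09%. By base, it rose at 56 (12.5%) and fell at 36 (8.02%) of 449 T, and rose at 26 (6.45%) and fell at 38 (9.43%) of 403 A. At G it rose at 24 (7.38%) and fell at 22 (6.77%) of 325, and at C it rose at 24 (10.9%) and fell at 17 (7.73%) of 220. The rises at T and C include those of the runs 3021 to 3026 and 6650 to 6659, which are not separate sites.

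**Figure D4:**
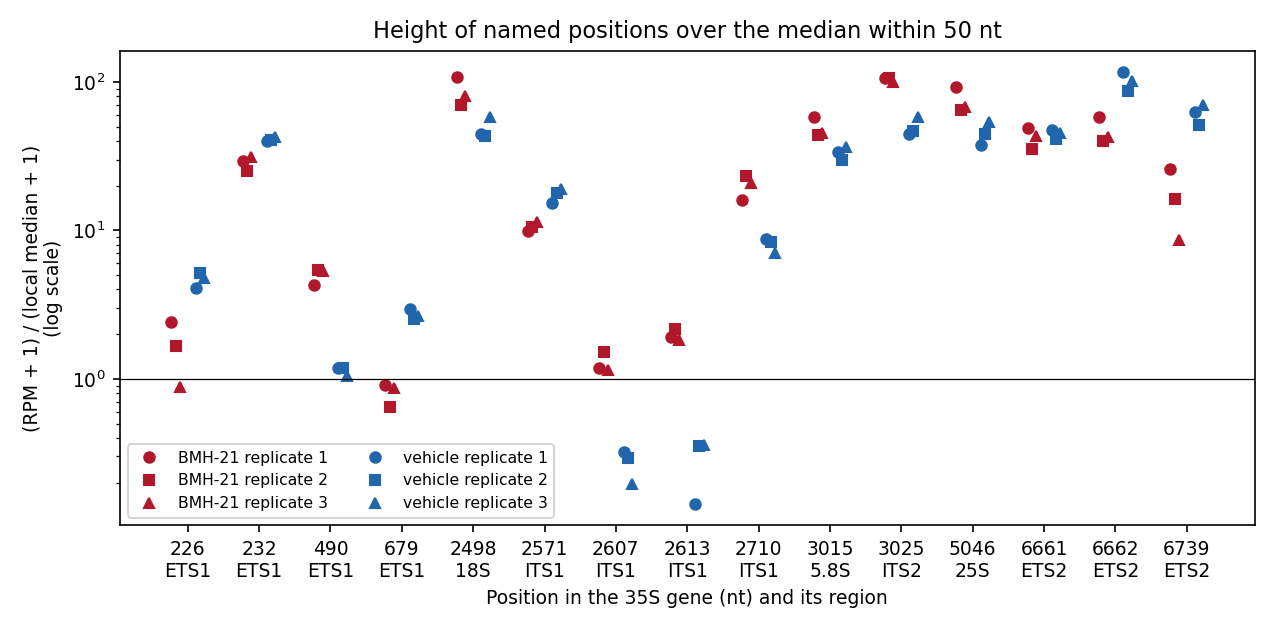
The x axis names positions of the 35S gene with their region, and the y axis gives (RPM + 1) over the local median within 50 nt plus 1, on a log scale. Points are single libraries, BMH-21 in red to the left and vehicle in blue to the right; at 490 the BMH-21 libraries lie at 4.27 to 5.44 and the vehicle libraries at 1.04 to 1.18.

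Peaks were taken as positions that were highest within 5 nt and at least 4 times their local median in all 3 libraries of a treatment. The gene had 167 such peaks with BMH-21 and 168 with vehicle, of which 137 were common (82.0% of the BMH-21 peaks and 81.5% of the vehicle peaks). In the spacers there were 57 with BMH-21 and 73 with vehicle, and 51 were common. In the mature regions there were 110 with BMH-21 and 95 with vehicle, and 86 were common. Only 9 BMH-21 peaks were a peak in no vehicle-treated library, and only 6 vehicle peaks were a peak in no BMH-21-treated library. The numbers depended on the height required, with 224 peaks for BMH-21 and 241 for vehicle at 3 times and 117 and 103 at 6 times the local median.

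The common peaks differed between spacers and mature regions in how their height moved. Among the 86 common peaks of the mature regions, contrast was higher with BMH-21 at 82, and 24 were called higher in limma with Benjamini-Hochberg adjustment, where over all tested positions of the mature regions 4.84% were called higher and 3.59% lower. Their median contrast change was 0.45, beside 0.02 over all tested positions of the mature regions. Among the 51 common peaks of the spacers contrast was higher at 14, with 3 called higher and 11 lower, where over all tested spacer positions 9.31% were called higher and 8.09% lower. Their median change was -0.27 beside -0.05 over all tested spacer positions. With a pseudocount of 0.1 the spacer peaks had 22 higher and a median of -0.11. Their RPM fell at 46 of 51, where 69.9% of all tested spacer positions fell.

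The read ends of the 51 common spacer peaks were A at 29, G at 10, C at 6 and T at 6. Over all spacer positions A made up 28.4%, G 22.9%, C 15.6% and T 33.0%. Those of the 86 common peaks of the mature regions were A at 32, C at 25, T at 23 and G at 6. Over all positions of the mature regions A made up 26.6%, C 19.5%, T 26.6% and G 27.3%.

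Troughs, at most 0.25 times the local median and lowest within 5 nt in all 3 libraries, numbered 64 with BMH-21 and 73 with vehicle, with 38 in common (59.4% of the BMH-21 troughs and 52.1% of the vehicle troughs). In the spacers these were 8, 15 and 4. Of the BMH-21 troughs in the spacers, the lowest in ETS1 was 228, with 0.654, 0 and 0 RPM with BMH-21 and 3.77, 3.75 and 2.28 RPM with vehicle, 4 nt before the highest position of that spacer. It rested on 2 reads with BMH-21. Its level fell by 1.83 on the log2 scale (limma with Benjamini-Hochberg adjustment, adjusted p = 0.00960), while its contrast, at -0.69 ± 0.24, did not pass in that test (adjusted p = 0.102). The contrast depended on the pseudocount, and was -2.81 with 0.1 (adjusted p = 0.0417 in that test) and 0.14 with 5. By the same rule the lowest troughs of ITS2 and ETS2 were 3020 and 6648, the first positions past 5.8S and 25S, which had no reads in any library. Whether read ends were left out there before deposit is not given in the sources used here, so these zeros cannot be read as low occupancy.

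The share of spacer read ends at the highest 5% of spacer positions, 75 in each library, was larger with BMH-21. It was 47.9%, 52.4% and 50.9% with BMH-21 and 41.6%, 41.3% and 41.9% with vehicle, without overlap (exact permutation test, two-sided, p = 0.1). When the 180 positions next to mature ends were left out, the difference in this share was 1.297 percentage points (p = 0.4 in the same exact test), against 8.82 over all spacer positions. Of the 75 highest positions of each library, 62 were common to the BMH-21-treated libraries and 66 to the vehicle-treated libraries, and 46 were in both sets. Within 30 nt of a mature end lay 18 of the 62 and 10 of the 66.

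The base at the read end, taken here as the last nucleotide added, also differed over the spacers as a whole. Near the mature ends, ends left by cutting of the precursor cannot be told apart from it in these data. Read ends were at A in 29.2%, 29.2% and 31.0% with BMH-21 and 34.2%, 35.4% and 34.8% with vehicle, and at C in 20.5%, 20.6% and 20.2% with BMH-21 and 16.0%, 16.0% and 16.2% with vehicle. G took 21.0%, 18.9% and 19.7% with BMH-21 and 23.6%, 23.6% and 23.7% with vehicle, and T 29.2%, 31.3% and 29.1% with BMH-21 and 26.2%, 25.1% and 25.3% with vehicle. None of the 4 bases overlapped between treatments (exact permutation test, two-sided, p = 0.1 each and 0.1 after Benjamini-Hochberg adjustment over the bases).

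Most of this difference lay near the mature ends. With those positions left out, A took 37.5%, 39.96% and 40.8% with BMH-21 and 38.9%, 39.8% and 39.3% with vehicle, which overlapped, as did G and T. C remained higher with BMH-21, at 15.0%, 14.3% and 14.4%, than with vehicle, at 13.6%, 13.5% and 13.5% (exact permutation test, two-sided, p = 0.1, and 0.4 after adjustment over the bases). By spacer, T at the read end was higher with BMH-21 in ITS2 and lower in the others, without overlap in any. The difference was 9.26 percentage points in ITS2, against -1.09 in ETS1, -1.93 in ITS1 and -4.53 in ETS2. In ITS2, T was at 43.4%, 45.3% and 43.6% with BMH-21 and 34.4%, 34.6% and 35.6% with vehicle, and A at 17.5%, 16.9% and 18.01% with BMH-21 and 28.6%, 28.3% and 27.4% with vehicle.

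Over the mature rRNAs, G at the read end was less frequent with BMH-21, at 18.5%, 19.1% and 18.9%, than with vehicle, at 21.2%, 21.1% and 20.6%, without overlap. T was at 27.6% in each BMH-21-treated library and at 25.9%, 25.7% and 26.3% with vehicle. At single positions of the mature regions, contrast was called lower at 4.65% and higher at 2.12% of 1462 G, beside 3.59% lower and 4.84% higher over all bases. It was lower at 4.92% and higher at 4.01% of 1422 A. At T the contrast was lower at 2.33% and higher at 6.98% of 1419, and at C lower at 2.01% and higher at 6.88% of 1046. In the spacers the median contrast change was -0.17 at A, -0.11 at G, 0.06 at C and 0.11 at T. These medians are given for the added constant of 1 only, which in the spacers acts more on BMH-21-treated libraries. Away from the mature ends, the shares of spacer read ends at A, G and T overlapped between treatments, as given above.

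The bases ahead of the read end were tallied in the same way, with the same added constant. In the spacers the median contrast change was -0.16 where the next base was G, -0.09 for T, 0.01 for A and 0.08 for C. By the number of G among the next 10 bases, the share of spacer positions with a rise of contrast was 9.13% for 0 or 1, 8.54% for 2, 7.14% for 3 and 12.6% for 4 or more, beside 9.31% over all. The share with a fall was 7.49%, 11.3%, 5.59% and 8.20% in the same order, beside 8.09% over all, and neither share changed steadily with the number of G. The median change with 4 or more G was 0.04 in the spacers and -0.02 in the mature regions, and with 0 or 1 G it was -0.04 in the spacers and 0.05 in the mature regions.

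**Figure D5:**
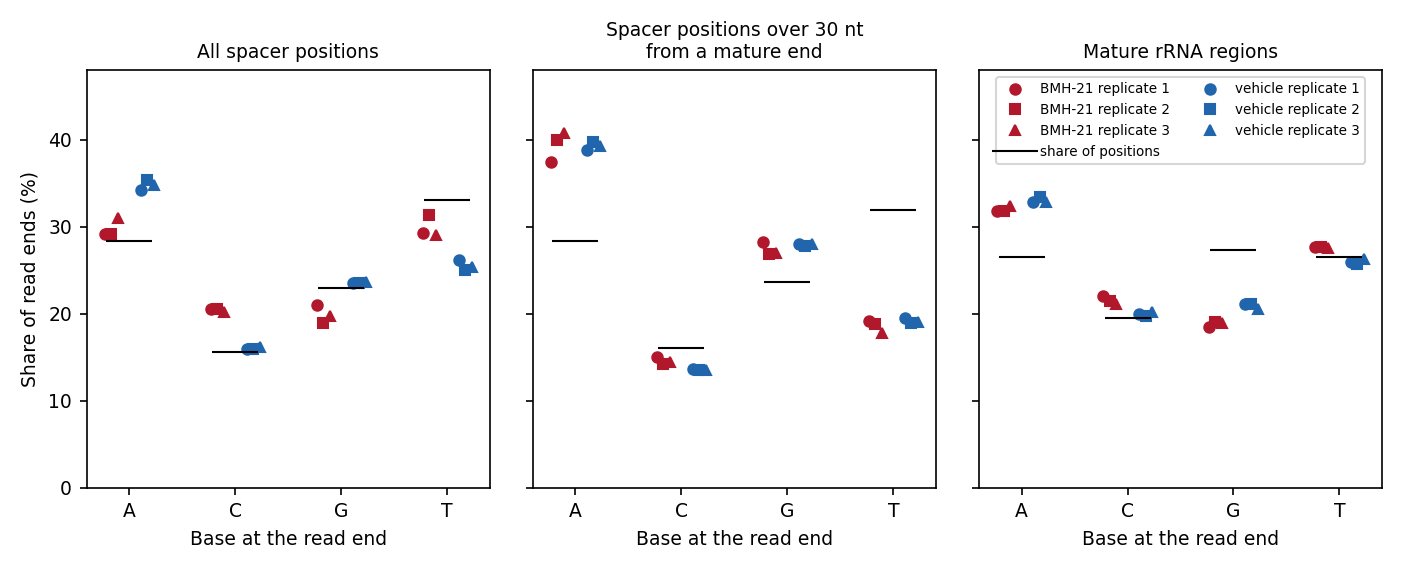
The x axes give the base at the read end and the y axis its share of read ends (%), for all spacer positions (left), spacer positions over 30 nt from a mature end (middle) and the mature regions (right). Points are single libraries, BMH-21 in red to the left and vehicle in blue to the right, and bars mark the share of positions with that base; A lies at 29.2% to 31.0% with BMH-21 over all spacer positions, against 34.2% to 35.4% with vehicle, and overlaps in the middle panel.

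The shape of the spacer profile was compared between libraries by the correlation of local contrast over the 1397 tested positions, which share the sequence and the depth of each library and are no replicates. Pearson's r lay between 0.895 and 0.922 among BMH-21-treated libraries and between 0.962 and 0.983 among vehicle-treated libraries. BMH-21-treated replicate 1 had r of 0.910 to 0.922 with the vehicle-treated libraries. For replicates 2 and 3 these were 0.854 to 0.875 and 0.837 to 0.853. In the spacers replicate 1, which held the most spacer signal of the BMH-21-treated libraries, was also nearest to vehicle in shape. Spacer reads of replicates 1, 2 and 3 were 104922, 49848 and 25318, the same order as r. Whether depth set these r values was not tested. In the mature regions replicate 1 was not nearest throughout. Its r with the vehicle-treated libraries was 0.931 to 0.959 there, against 0.949 to 0.955 for replicate 2 and 0.949 to 0.957 for replicate 3.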

How the data were processed

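The authors trimmed adapters with cutadapt 1.12 and aligned reads with STAR 2.7.1a to R64 (versions from the submitters' processing notes) and then assigned 5′ read ends to the 35S gene. They deposited RPM values per library, scaled to the read ends on the gene, and columns of means, medians, ratios and p-values that were not used. RPM was divided by its smallest value above 0 in each library, which gave whole reads (within 0.01) at 99.97% to 100.0% of positions, and edgeR 4.0.16 was run on these as an alternative. Of per-library columns 0 were left out. The linker carries a molecular identifier, and merging by it is not given in the sources used here. Depth is therefore given in reads, which can exceed the number of separate molecules. The table of the 16-min experiment was scaled separately and not used here.

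R 4.3.3 ran limma 3.58.1, fitted to log2(RPM + 1) of positions with a mean of at least 1 RPM, on local contrast and on windows; an adjusted p (Benjamini-Hochberg) under 0.05 counted as a call. Single values per library were set against each other in an exact permutation test (two-sided). Python 3.11.15 (pandas 2.3.3, numpy 2.4.6, matplotlib 3.10.9) made tables and plots. Coordinates and sequences come from the RefSeq copy of R64. The fits were tested on simulated data, drawn with the same spread for both treatments and independently at each position. That setting lacks the wider spread of the BMH-21-treated libraries, part of which spacer positions share. Named positions are, per region, the highest with each treatment. In spacers and in mature regions, they are also the 3 largest falls and rises of level and of contrast past the threshold, more than 5 nt apart. The lowest BMH-21 trough of each spacer and the 3 windows most lowered and most raised were added to them. Positions 3021, 6650 to 6659 and border stretches were chosen after their values were seen. Members and lists were chosen with earlier results of these data known. Replicate numbers were not taken as a pairing of the libraries.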

Additional observations from a re-analysis of the deposited data

How the results depend on the processing

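Positions were refitted under 14 alternatives. A mean of at least 10 RPM, which kept 6075 positions of the gene, gave 615 lower spacer positions, and with the median ratio there were 559. In the mature regions the median ratio gave 205 lower and 506 higher. Leaving out 1 library gave 1 to 1232 lower and 0 to 15 higher in the spacers, and 0 to 786 lower and 0 to 288 higher in the mature regions. Contrast was sensitive to the pseudocount. With 0.1 there were 47 lower and 81 higher in the spacers and 122 lower and 125 higher in the mature regions, and with 5 there were 251 and 223 in the spacers and 291 and 440 in the mature regions. With the 6075 positions at a mean of at least 10 RPM, 133 were lower and 77 higher in the spacers. Leaving out 1 library gave 3 to 180 lower and 29 to 189 higher in the spacers, and 3 to 385 lower and 0 to 286 higher in the mature regions. Of 135 windows of 50 nt 32 were lower and 16 higher, and of 35 windows of 200 nt 9 were lower and 8 higher. These stand beside 19 and 13 of the 69 windows of 100 nt. Leaving out 1 library gave 0 to 23 lower and 0 to 14 higher windows. With the replicate number as a block, 466 spacer positions were lower and 0 higher (8 before adjustment), 168 and 7 in the mature regions, contrast was lower at 12 and higher at 50 in the spacers and 14 and 2 in the mature regions, and 0 windows passed in either direction (17 and 12 before adjustment). Same-numbered libraries deviated with correlations of -0.36, -0.10 and -0.13, so the block was not taken as a pairing. With 3 libraries per treatment these correlations cannot show that there was none. The cause of these changes in counts was not tested.

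The level at 2710 was 0.18 with the median ratio and 0.10 without BMH-21-treated replicate 2, and that at 3025 was 0.0105 with the median ratio and between -0.52 and 0.0060 without 1 library. The contrast at 228 was -2.81, past the threshold, with a pseudocount of 0.1 and 0.14 with a pseudocount of 5. Without positions near a mature end the difference was 0.10 points for A and -0.56 for T, and in ETS1 alone, an alternative chosen after seeing the data, 0.965 for G and -1.09 for T. Leaving out 1 library moved the differences in base share to between -5.58 and -4.69 for A, 4.32 and 4.48 for C, -4.32 and -3.25 for G and 3.63 and 4.74 for T, the ETS1 ratio to between -0.15 and -0.08, and the share at the highest positions to between 7.80 and 10.1. A threshold of 6 times gave 117 BMH-21 and 103 vehicle peaks, and 0.5 times gave 143 BMH-21 and 178 vehicle troughs. The ratio of the spread, 3.14, was 2.05 after scaling to the spacers and 1.88 to 5.85 without 1 library.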
